A study of Mus musculus with 8 samples.

Results

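Of the 18094 genes measured in wild-type (WT) and CTCF-K20R mouse cells, 7 genes that mark or specify definitive endoderm were followed across all libraries. They were taken by name from the gene expression table. They are *Sox17* and *Sox7*, *Foxa1* and *Foxa2*, *Gata4* and *Gata6*, which encode transcription factors, and *Cxcr4*, which encodes a chemokine receptor of the cell surface and is therefore a marker rather than a factor. The cells were mouse embryonic stem cells (mESCs) of the E14Tg2A line on day 0 and embryoid bodies (EBs) on day 4 of differentiation. Each genotype had 2 libraries on each day, which makes 8 libraries altogether. In CTCF-K20R cells, CRISPR/Cas9 was used to replace lysine 20 of CTCF, the zinc finger protein that organises chromatin loops, with arginine. Both genotypes were grown with leukemia inhibitory factor (LIF) and 2i inhibitors on mitomycin C-inactivated mouse embryo fibroblasts, and EBs of both were made by the hanging-drop method in medium with serum and without LIF. The methods of the study call the libraries of a group biological replicates from independent experiments. Which cultures or clones they came from is not given in the sources used here, so the p-values measure only the spread between these libraries, and genotype and clone cannot be told apart.

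Definitive endoderm arises from cells of the primitive streak that receive Nodal signals, and it gives rise to the lining of the gut and to organs such as the liver and the pancreas. Nodal acts through activin receptors and SMAD proteins together with FOXH1, and EOMES and MIXL1 act early in the specification of endoderm. SOX17 and the FOXA and GATA factors then bind and open endodermal enhancers. None of the 7 genes is exclusive to definitive endoderm. *Gata4*, *Gata6* and *Sox17* are also used in extraembryonic endoderm, *Foxa2* in the node and notochord, *Gata4* and *Gata6* in cardiac mesoderm, and *Sox7* and *Sox17* in endothelium.

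The FOXA genes are close relatives, so reads of one could be counted for the other where their transcripts are identical. Of the 31-base words in the annotated transcripts, 8 of *Foxa1* (0.243%) and 8 of *Foxa2* (0.338%) occurred in another gene, which was in each case the other FOXA gene. *Sox17* and *Cxcr4* shared 0 such words with other genes, *Gata4* and *Gata6* 1 each, and *Sox7* 23 (0.707%). Annotated genes on the opposite strand overlap *Sox17* (Gm37587) and *Gata6* (1010001N08Rik). Whether the counting used strand is not given in the sources used here, so reads of such a pair may not be separable.

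Of the 7 genes, 3 had an entry in the RefSeq promoter table (GRCm38.p6), and the 250 bases before their start sites are shown because these genes moved together on day 4. The first is *Foxa1* at chr12:57546112-57546361, the second *Foxa2* at chr2:148046970-148047219 and the third *Cxcr4* at chr1:128592300-128592549, all on the minus strand. The *Foxa1* start lies 805 bases inside the gene as GENCODE draws it, within an intron of a non-coding transcript, and of 3 *Foxa2* windows the one at the outermost start is shown. Capitals mark a match to a searched motif.
Foxa1: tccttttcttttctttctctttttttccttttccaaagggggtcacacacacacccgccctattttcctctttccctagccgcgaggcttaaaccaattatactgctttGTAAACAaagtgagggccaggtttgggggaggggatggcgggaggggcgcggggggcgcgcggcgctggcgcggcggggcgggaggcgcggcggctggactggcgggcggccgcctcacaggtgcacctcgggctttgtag
Foxa2: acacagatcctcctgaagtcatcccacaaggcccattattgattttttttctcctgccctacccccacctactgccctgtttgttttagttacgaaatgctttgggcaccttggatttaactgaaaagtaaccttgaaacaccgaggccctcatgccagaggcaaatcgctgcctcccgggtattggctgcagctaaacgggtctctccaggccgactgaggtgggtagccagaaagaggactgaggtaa
Cxcr4: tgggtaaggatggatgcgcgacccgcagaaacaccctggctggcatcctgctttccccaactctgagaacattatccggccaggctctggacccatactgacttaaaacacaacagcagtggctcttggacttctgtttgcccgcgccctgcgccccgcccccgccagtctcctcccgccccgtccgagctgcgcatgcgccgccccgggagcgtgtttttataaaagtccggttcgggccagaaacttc
The letters searched, on both strands, were AGATAA for GATA factors, TGTTTAC for forkhead factors, AACAAT for SOX factors and AGGGGGC for the core of the CTCF motif. Of 32851 promoter windows of this length, 9.99% held the GATA letters, 3.17% the forkhead letters, 9.42% the SOX letters and 9.43% the CTCF letters. The *Foxa1* window held 1 match, the forkhead letters read on the other strand (GTAAACA) at position -141, and the printed *Foxa2* and *Cxcr4* windows held 0 matches. The other *Foxa2* windows held 1 match each, to the CTCF letters in one and to the GATA letters in the other. A match of letters is a description of the window and not a bound site.

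The deposited values are gene counts normalized by the authors with DESeq2, and they summed to between 19412659 and 21311513 per library. A limit of detection of 3 reads corresponded to 2.43 to 3.44 normalized counts, and such limits cover counting error only. How far paired libraries lay apart was measured as their squared difference over that of independently drawn reads, and it averaged 0.314 for WT mESCs, 0.278 for WT EBs, 3.999 for CTCF-K20R mESCs and 4.362 for CTCF-K20R EBs. On both days the WT libraries, though described as biological replicates, differed from each other by less than the sampling noise, so each pair was counted as 1 sample, and the error of every test below comes from the CTCF-K20R pairs. The 15767 genes whose normalized counts averaged 10 or more were tested with limma on log2(value + 1) and Benjamini-Hochberg adjustment. A gene was called where its adjusted p was under 0.05 and its absolute log2 fold change above 1. Among the 7 genes, 6 passed the filter, and *Sox7*, with a mean of 7.12, did not. *Sox17*, *Foxa1* and *Gata6* passed it only through their WT EB libraries. Counts and medians over the 6 genes therefore lean towards genes that are high in WT EBs.

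In WT cells, 6 of the 7 genes were near the limit of detection or low on day 0 and abundant on day 4. The WT change has no replicate check, so it is given with no test. The log2 change from WT mESCs to WT EBs was 9.64 for *Foxa2*, 8.69 for *Sox17*, 7.74 for *Foxa1*, 7.19 for *Gata6*, 5.21 for *Gata4* and 5.18 for *Cxcr4*. All 6 genes tested thus had a change above 1 on this scale, as did 18.9% of all genes tested, whose median change was 0.01. Between 16 genes (for *Foxa2*) and 265 genes (for *Cxcr4*) had a larger change. In WT mESCs *Foxa1* and *Foxa2* were under the limit of detection, so their sizes and ranks depend on the 1 added to each value. Computed against that limit, the WT EB mean was at least 719 times higher for *Foxa2* and at least 68.3 times for *Foxa1*. *Sox7* was not higher on day 4, with 14.7 and 12.3 normalized counts in WT mESCs and 10.7 and 10.6 in WT EBs.

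**Figure D1:**
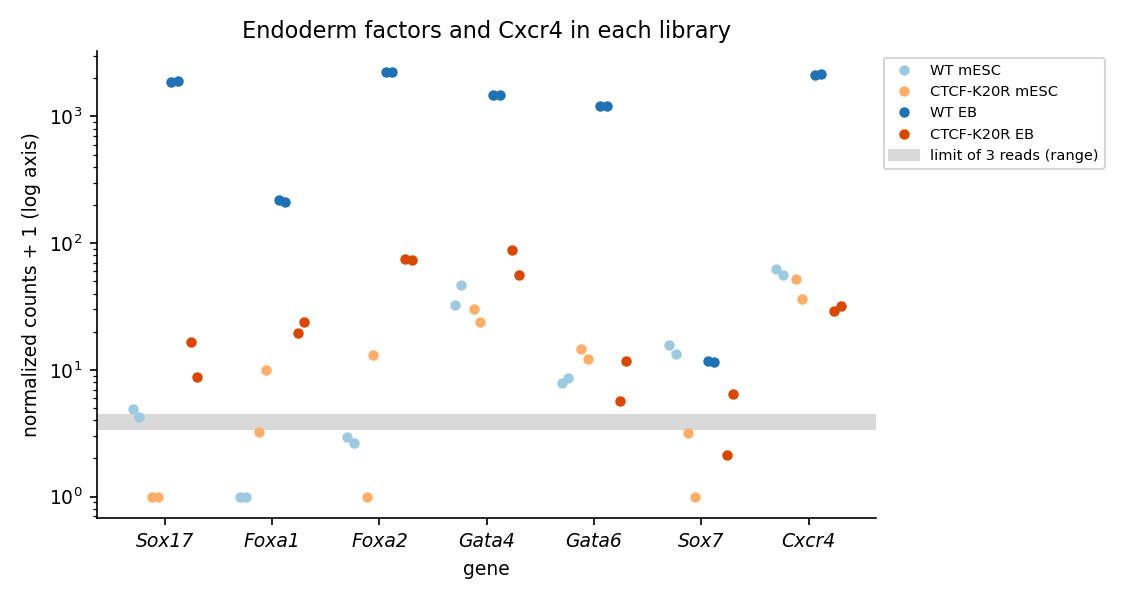
Normalized counts plus 1 (log axis) of the 7 genes in each of the 8 libraries, coloured by genotype and day. The grey band is the limit of 3 reads, 2.43 to 3.44 normalized counts, drawn with 1 added. Both CTCF-K20R EB libraries lie below both WT EB libraries for all 7 genes, and *Sox7* is low in every library.

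Per kb of annotated exon, the order of the levels in WT EBs was *Cxcr4* (1184 normalized counts per kb), *Foxa2* (1029), *Sox17* (437), *Gata4* (377), *Gata6* (329.7), *Foxa1* (66.7) and *Sox7* (3.23). The order was the same per kb of the longest coding transcript. Since the WT libraries count as 1 sample, no difference between neighbours in this order has a replicate check. In CTCF-K20R EBs the order differed, with *Foxa2* (33.8 normalized counts per kb) first, followed by *Gata4* (18.3), *Cxcr4* (16.2), *Foxa1* (6.51), *Sox17* (2.68), *Gata6* (2.1) and *Sox7* (0.998).

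On day 4, all 6 genes tested were lower in CTCF-K20R EBs than in WT EBs, with a median log2 fold change of -5.53. The filter favoured this direction, since *Sox17*, *Foxa1* and *Gata6* passed it only through WT EBs and *Sox7* was left out. Across all genes tested, 8.65% were called lower and 6.89% higher, and the median was 0.01. Both CTCF-K20R EB libraries were below both WT EB libraries for 7 of the 7 genes, which held for 41.7% of all genes tested. In these bulk libraries, fewer endodermal cells and less RNA of these genes per cell cannot be told apart.

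Among the SOX genes, *Sox17* (ENSMUSG00000025902, chromosome 1 of GRCm38 from 4490931 to 4497354), which encodes a factor needed for definitive endoderm, was nearly absent from CTCF-K20R EBs. Its normalized counts were 1881 and 1912 in WT EBs and 15.5 and 7.80 in CTCF-K20R EBs. The groups did not overlap, and the WT mean was 163 times the CTCF-K20R mean (122 to 245 times between single libraries). The log2 fold change was -7.30 (standard error 0.573, adjusted p = 0.000523, limma with Benjamini-Hochberg adjustment), and 13 genes had a lower one. On day 0 the values were already small, at 3.91 and 3.26 in WT mESCs and 0 in both CTCF-K20R mESC libraries, a log2 fold change of -2.20 that missed the threshold (adjusted p = 0.0583, limma). From CTCF-K20R mESCs to CTCF-K20R EBs, *Sox17* rose by a log2 change of 3.59 (standard error 0.468, adjusted p = 0.00149, limma). With both CTCF-K20R mESC values at 0, the size of this rise depends on the value added before taking logs. It was 6.79 with 0.1 added and 1.09 with 10 added, and *Sox17* stayed called in both. The level reached was 0.613% of that in WT EBs.

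*Sox7* (ENSMUSG00000063060, chromosome 14 from 63943673 to 63950732), a relative of *Sox17* in the SOXF group, was scarce in every group. It had 1.14 and 5.44 normalized counts in CTCF-K20R EBs and 2.16 and 0 in CTCF-K20R mESCs. On day 0 both CTCF-K20R libraries were under the limit of detection, and the WT mean was at least 4.12 times higher, computed against that limit. On day 4 the WT mean was 3.17 times the limit. CTCF-K20R EB replicate 2 was above the limit, and the ratio between single libraries was 1.96 to 9.32. With no filter on low values, its log2 fold change was -1.65 on day 4 (adjusted p = 0.308, limma) and -3.03 on day 0 (adjusted p = 0.176, limma), so neither difference passed the test at this depth.

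The FOXA genes encode forkhead factors that can open closed chromatin, and the share of the WT level found in CTCF-K20R EBs was larger for both than for *Sox17*. *Foxa2* (ENSMUSG00000037025, chromosome 2 from 148042877 to 148046969) had 2242 and 2244 normalized counts in WT EBs, against 74.0 and 73.3 in CTCF-K20R EBs, or 3.29% of the WT mean. Its values on day 0 were 1.97 and 1.64 in WT mESCs, and 0 and 12.0 in CTCF-K20R mESCs, so that the CTCF-K20R mESC libraries lay on either side of the WT ones. *Foxa1* (ENSMUSG00000035451, chromosome 12 from 57540628 to 57546916) had 216.3 and 209.6 normalized counts in WT EBs, against 18.7 and 22.8 in CTCF-K20R EBs, or 9.76% of the WT mean. It was at 0 in both WT mESC libraries and at 2.21 and 8.90 in CTCF-K20R mESCs.

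On day 4 the log2 fold change of *Foxa2* was -4.91 (standard error 1.41, adjusted p = 0.04, limma), and that of *Foxa1* was -3.30 (standard error 0.755, adjusted p = 0.0194, limma). Both genes rose over differentiation within CTCF-K20R cells, *Foxa2* by a log2 change of 4.37 (standard error 1.15, adjusted p = 0.0211, limma) and *Foxa1* by 1.94 (standard error 0.616, adjusted p = 0.0393, limma). These calls were the least firm of the 6 genes. Without CTCF-K20R EB replicate 1 or 2, the log2 fold change on day 4 was -4.92 or -4.90 for *Foxa2* (adjusted p = 0.218 and 0.22, limma) and -3.17 or -3.44 for *Foxa1* (adjusted p = 0.131 and 0.117, limma). The *Foxa2* call was also lost with a pseudocount of 0.1 (adjusted p = 0.209, limma) and with no filter on low values (adjusted p = 0.104, limma). The error of the main fit also takes in the CTCF-K20R mESC pair, which was 0 and 12.0 for *Foxa2*. With only the EB groups in the fit, both genes stayed called. The standard error was then 0.155 for *Foxa2* (adjusted p = 0.000641, limma) and 0.341 for *Foxa1* (adjusted p = 0.00469, limma).

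The GATA genes encode zinc finger factors of endoderm and cardiac mesoderm. *Gata6* (ENSMUSG00000005836, chromosome 18 from 11052064 to 11085635) had 1207 and 1205 normalized counts in WT EBs, against 4.69 and 10.7 in CTCF-K20R EBs. The WT EB mean was 157 times the CTCF-K20R EB mean, and the log2 fold change was -7.21 (standard error 0.546, adjusted p = 0.000464, limma). Its day 0 values were 6.90 and 7.69 in WT mESCs and 13.5 and 11.2 in CTCF-K20R mESCs, so the CTCF-K20R EB libraries were below the CTCF-K20R mESC libraries. That change over differentiation, -0.70 on the log2 scale, did not pass the test (adjusted p = 0.227, limma).

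*Gata4* (ENSMUSG00000021944, chromosome 14 from 63198922 to 63271692) had 1476 and 1467 normalized counts in WT EBs, against 87.4 and 55.3 in CTCF-K20R EBs, a 20.6-fold difference of the means. On day 0 it was low in both genotypes, at 31.5 and 46.1 in WT mESCs and 29.3 and 23.0 in CTCF-K20R mESCs. The log2 fold change on day 4 was -4.38 (standard error 0.361, adjusted p = 0.000607, limma). *Gata4* rose from CTCF-K20R mESCs to CTCF-K20R EBs, by a log2 change of 1.39 (standard error 0.295, adjusted p = 0.00963, limma), against a change of 5.21 in WT cells. The rise within CTCF-K20R cells missed the threshold without CTCF-K20R EB replicate 1 (log2 change 1.06, adjusted p = 0.0766, limma) and without CTCF-K20R mESC replicate 2 (1.22, adjusted p = 0.0539, limma). Whether the changes of *Gata4* and *Gata6* within CTCF-K20R cells differ from each other was not tested.

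*Cxcr4* (ENSMUSG00000045382, chromosome 1 from 128588199 to 128592293), the receptor of the chemokine CXCL12, had 2129 and 2154 normalized counts in WT EBs, against 27.9 and 30.7 in CTCF-K20R EBs. The WT mean was 73.1 times the CTCF-K20R mean, and the log2 fold change was -6.15 (standard error 0.312, adjusted p = 0.000142, limma). Day 0 levels were 61.1 and 54.8 in WT mESCs and 51.1 and 35.2 in CTCF-K20R mESCs, above both CTCF-K20R EB libraries. Its change over differentiation within CTCF-K20R cells was -0.52 and did not pass the test (adjusted p = 0.133, limma).

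The other genes of the CXCL12 axis moved in opposite directions on day 4. *Cxcl12*, which encodes the ligand, had 147.7 and 149.2 normalized counts in WT EBs, whereas CTCF-K20R EBs had 2519 and 2646 (log2 fold change 4.11, adjusted p = 6.77e-05, limma). *Ackr3*, which encodes the scavenging receptor of the same ligand, had 296.5 and 287.5 in WT EBs, whereas CTCF-K20R EBs had 20.7 and 18.1 (log2 fold change -3.85, adjusted p = 0.00182, limma). On day 4 the ligand was thus higher, and both of its receptors were lower, in CTCF-K20R EBs.

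On day 0, 0 of the 6 genes tested were called in either direction with limma, against 2.60% of all genes called lower and 1.19% called higher. At an unadjusted p under 0.05 from the same fit there were 2, *Sox17* (lower) and *Foxa1* (higher), and the share of all genes at that limit was not counted. The direction on day 0 was mixed, with both CTCF-K20R mESC libraries below both WT mESC libraries for some of the 7 genes and above them for others. How often this occurs among all genes on day 0 was not counted. With all 8 libraries as separate samples, *Sox17* (log2 fold change -2.19, adjusted p = 0.00133, limma) and *Foxa1* (2.50, adjusted p = 0.0059, limma) were called, at values of at most 8.90 normalized counts. Of all 15767 genes tested, 903 were called lower and 445 higher on day 0 in that setting. It counts the WT pairs as replicates although they differed by less than the sampling noise. Without CTCF-K20R mESC replicate 1, *Foxa1* (3.31, adjusted p = 0.0499, limma) and *Foxa2* (2.21, adjusted p = 0.0499, limma) were called higher.

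**Figure D2:**
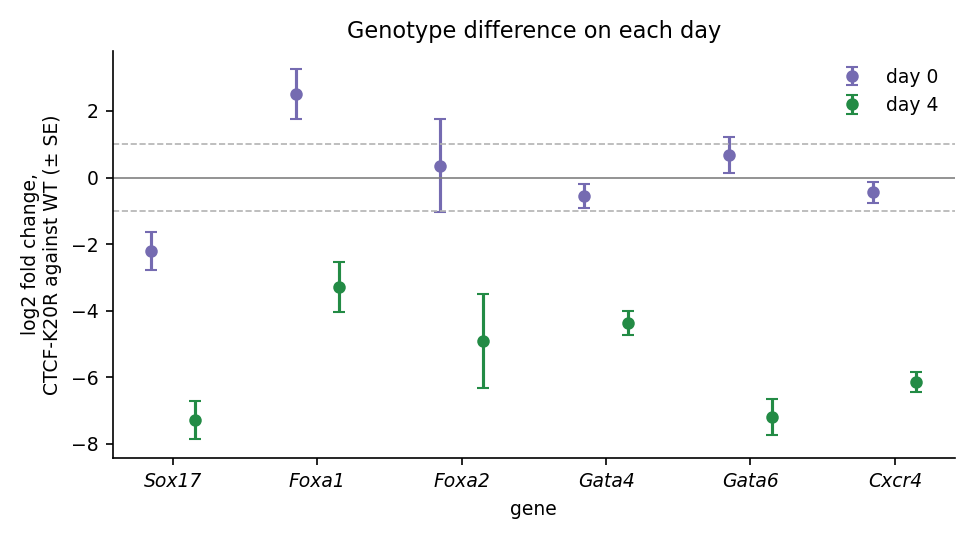
Log2 fold change of CTCF-K20R against WT on day 0 (purple) and day 4 (green) for the 6 genes tested, with the standard error of the limma fit and dashed lines at 1 and -1. The day 4 values run from -7.30 to -3.30, while the day 0 values lie on both sides of 0.

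Whether the genotype difference itself changed between the days was tested with the interaction term of the same fit. It was called lower for 5 of the 6 genes, against 6.04% of all genes tested (6.84% were called higher), and its median over the 6 genes was -5.49. The values were -7.89 for *Gata6* (adjusted p = 0.00202, limma), -5.80 for *Foxa1* (adjusted p = 0.0147), -5.70 for *Cxcr4* (adjusted p = 0.00104), -5.10 for *Sox17* (adjusted p = 0.00932) and -3.82 for *Gata4* (adjusted p = 0.00541). For *Foxa2* the value was -5.27 with a standard error of 1.99, and it did not pass (adjusted p = 0.109, limma). It was called without CTCF-K20R mESC replicate 1 (-7.12, adjusted p = 0.00651, limma), without CTCF-K20R mESC replicate 2 (-3.42, adjusted p = 0.0271) and with the replicate block (-5.27, adjusted p = 0.0484). Without CTCF-K20R EB replicate 2, the number of these genes called lower in the interaction was 3, since *Foxa1* (-5.94, adjusted p = 0.103, limma) and *Gata4* (-3.50, adjusted p = 0.053) were lost. *Foxa1* was also lost without CTCF-K20R EB replicate 1 (-5.66, adjusted p = 0.107, limma), and *Sox17* with a pseudocount of 0.1 (-2.21, adjusted p = 0.179, limma).

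Within CTCF-K20R cells, 4 of the 6 genes tested rose from day 0 to day 4, namely *Foxa2*, *Sox17*, *Foxa1* and *Gata4*, and 0 fell. Of all genes tested, 14.5% rose and 11.6% fell in this comparison. The 4 rises were between 1.39 and 4.37 on the log2(value + 1) scale, and the WT changes of the same genes were between 5.21 and 9.64. Sizes that start from day 0 values near the limit of detection depend on the added 1. The number of rises was 1 without CTCF-K20R EB replicate 1, 2 without CTCF-K20R EB replicate 2, and 3 without either of the CTCF-K20R mESC replicates.

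**Figure D3:**
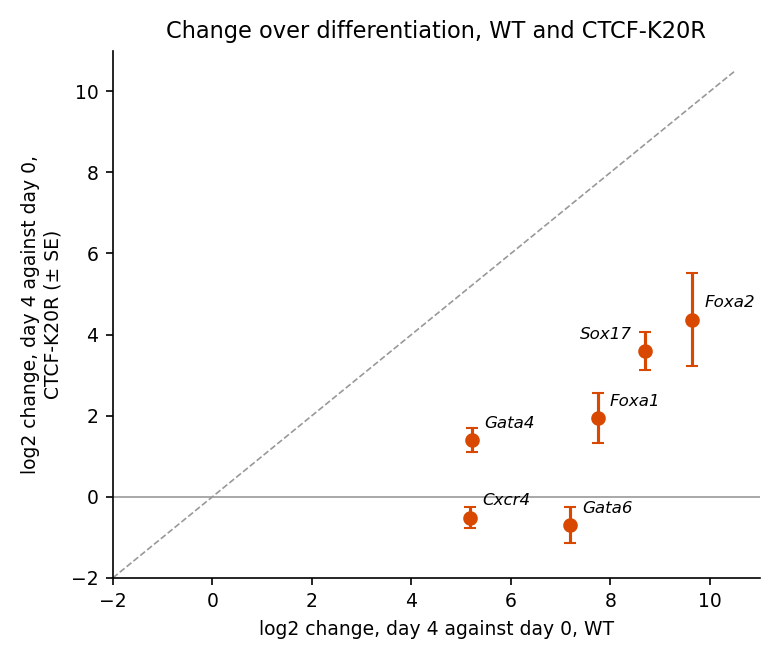
Log2 change from day 0 to day 4 of the 6 genes tested, in WT cells (horizontal axis, no error since the WT libraries count as 1 sample) and in CTCF-K20R cells (vertical axis, with the standard error of the limma fit). All 6 points lie below the dashed line of equal change, and *Cxcr4* and *Gata6* lie below 0 on the vertical axis.

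The other genes of definitive endoderm and anterior mesendoderm were mostly lower on day 4 as well. Of 14 such genes, 12 were tested, and 10 were lower and 0 higher in CTCF-K20R EBs, with a median log2 fold change of -5.05. Some of them, such as *Lhx1* and *Cer1*, passed the filter only through WT EBs, so this count and median lean towards lower values. *Lhx1*, a LIM homeobox gene of the anterior primitive streak, had 15499 and 15710 normalized counts in WT EBs, against 6.65 and 6.78 in CTCF-K20R EBs (log2 fold change -10.98, adjusted p = 9.65e-05, limma). *Cer1*, which encodes a secreted inhibitor of Nodal, had 7907 and 7871 in WT EBs and 8.01 and 8.76 in CTCF-K20R EBs (-9.72, adjusted p = 0.000231, limma). Of the early regulators, *Mixl1* was at -6.27 (adjusted p = 0.000489, limma) and *Eomes* at -2.45 (adjusted p = 3.01e-05, limma).

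*Eomes* still had 1845 and 1777 normalized counts in CTCF-K20R EBs, against 9931 and 9866 in WT EBs. *Gsc* (-5.32), *Hhex* (-3.12), *Dkk1* (-6.27), *Frzb* (-6.17) and *Fzd8* (-1.35) were also among the genes called lower. The 2 genes tested but not called were *Otx2*, a homeobox gene of anterior ectoderm and endoderm (log2 fold change -0.12, adjusted p = 0.161, limma), and *Trh*, which encodes a prohormone (0.27, adjusted p = 0.00679, under the size limit).

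Genes of the Nodal pathway, which acts upstream of these factors, moved in both directions. All 15 genes listed were tested, of which 2 were called lower and 3 higher on day 4, with a median log2 fold change of -0.38. By the adjusted p alone, with no limit on size, 7 were lower and 5 higher. The ligand *Nodal* was higher, with 776.7 and 756.8 normalized counts in WT EBs, against 1899 and 1942 in CTCF-K20R EBs (log2 fold change 1.32, adjusted p = 0.000102, limma). The inhibitor *Lefty1* (1.93, adjusted p = 7.44e-05, limma) and the ligand *Gdf3* (3.32, adjusted p = 2.76e-05, limma) were higher too. The inhibitor *Lefty2* was instead lower, by less than the size limit (-0.60, adjusted p = 0.000651, limma). The co-receptor *Tdgf1* (-1.02, adjusted p = 4.17e-05, limma) and *Foxh1* (-1.37, adjusted p = 0.000152, limma), whose product is the nuclear partner of the SMAD proteins, were lower. The activin receptor genes *Acvr1b* (-0.49, adjusted p = 0.0027, limma) and *Acvr2a* (-0.65, adjusted p = 0.00756) and the genes *Smad2* (-0.56, adjusted p = 0.0308) and *Smad3* (-0.67, adjusted p = 0.0381) were lower by amounts under the size limit. *Smad4* was higher by less than that limit (0.22, adjusted p = 0.0236, limma), and *Acvr2b* did not pass the test (-0.10, adjusted p = 0.553, limma).

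Of the paralogs and cofactors of these factors, 2 of 8 tested were lower and 0 higher on day 4, with a median log2 fold change of -1.38. *Gata3*, with 145.5 and 145.4 normalized counts in WT EBs, against 17.9 and 20.1 in CTCF-K20R EBs, had a log2 fold change of -2.88 (adjusted p = 0.00391, limma). The other gene called was *Zfpm1*, which encodes a cofactor of GATA proteins (-2.78, adjusted p = 0.0104, limma). *Foxa3*, the remaining FOXA gene, had 65.3 and 62.5 normalized counts in WT EBs, against 39.1 and 51.2 in CTCF-K20R EBs and was not called (-0.50, adjusted p = 0.472, limma). *Sox18*, the remaining SOXF gene, had between 16.5 and 20.3 normalized counts in the 4 EB libraries (0.16, adjusted p = 0.919, limma).

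**Figure D4:**
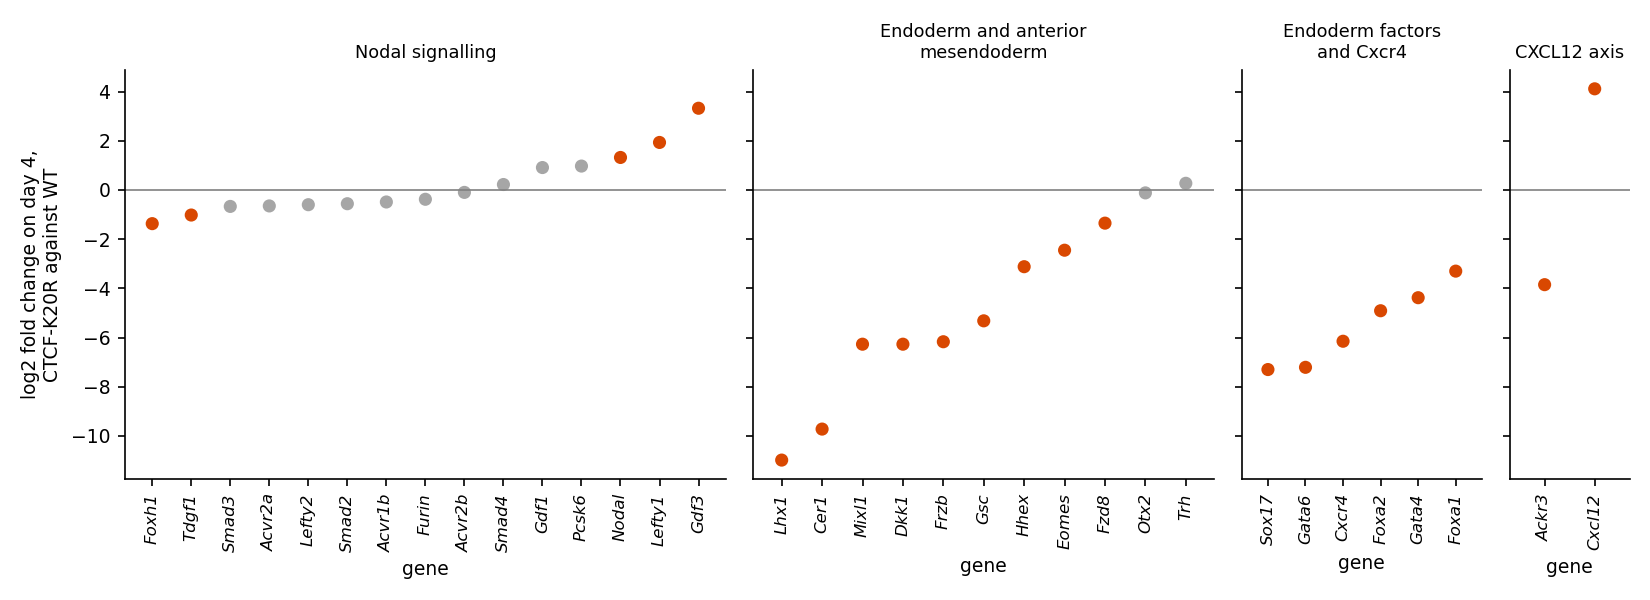
Log2 fold change on day 4, CTCF-K20R against WT, of genes tested in Nodal signalling, in endoderm and anterior mesendoderm, among the 5 endoderm factors tested with *Cxcr4*, and in the CXCL12 axis. Orange points were called and grey points were not. Nodal pathway genes lie between -1.37 and 3.32, while the endoderm factors and *Cxcr4* lie between -7.30 and -3.30.

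Markers of other cell types that use the same genes moved on day 4 too. All 8 node and notochord genes were lower in CTCF-K20R EBs (median log2 fold change -4.91), and their summed level was 26333 to 26508 normalized counts in WT EBs and 675.6 to 704.6 in CTCF-K20R EBs. Of the cardiac genes, 6 of 10 tested were lower and 0 higher (median -2.15), with sums of 2880 to 2900 in WT EBs and 281.2 to 296.2 in CTCF-K20R EBs. Of the blood and endothelial genes, 4 of 8 tested were lower and 2 higher, with sums of 6087 to 6105 and 830.4 to 882.6. In WT EBs, *T*, also a primitive streak gene (mean 20800), made up most of the node and notochord sum. *Mesp1* (mean 1695) made up most of the cardiac sum there. Some node and cardiac genes, such as *Noto* and *Hand2*, passed the filter only through WT EBs, so these counts and medians lean towards lower values. The part of these cell types in the changes of the 7 genes was not tested.

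The extraembryonic endoderm markers gave a mixed picture. Of 18 visceral and primitive endoderm genes, 13 were tested, of which 2 were lower and 3 higher on day 4 (median 0.45), with sums of 3844 to 3876 normalized counts in WT EBs and 3319 to 3545 in CTCF-K20R EBs. Single genes made up most of these sums, *Pdgfra* (mean 2742) in WT EBs and *Lrp2* (mean 2668) in CTCF-K20R EBs. The genes *Afp*, *Ttr*, *Apoa1* and *Apoa4* were too low to be tested, with at most 3.20 normalized counts in WT EBs and at most 5.74 in CTCF-K20R EBs. Tested but not called were, among others, *Hnf4a* (means of 16.6 in WT EBs and 6.99 in CTCF-K20R EBs), *Dab2* (133.7 and 245.7) and *Cubn* (9.42 and 33.2). The genes called lower were *Pdgfra* (log2 fold change -6.74, adjusted p = 0.000249, limma) and *Cited1* (-4.41, adjusted p = 0.00188, limma), and those called higher were *Lrp2*, *Rhox5* and *Amn*. Of the parietal endoderm genes, 7 of 11 tested were lower and 0 higher (median -2.21), with sums of 25186 to 25306 in WT EBs and 12587 to 12714 in CTCF-K20R EBs. Those not called were *Sparc* (-0.33), *Lamb1* (-0.65), *Lamc1* (0.55) and *Srgn* (-0.09). The part of extraembryonic endoderm in the changes of the 7 genes was not tested.

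Fibroblasts served as feeder cells for the mESCs. Of 9 fibroblast genes tested, 3 were lower and 2 higher on day 4 (median -0.78), with sums of 1247 to 1272 normalized counts in WT EBs and 1039 to 1092 in CTCF-K20R EBs. Those called higher were *Col3a1* (3.00, adjusted p = 0.0473, limma), with 4.15 and 3.50 normalized counts in WT EBs, against 62.9 and 22.4 in CTCF-K20R EBs, and *Thy1* (1.30, adjusted p = 0.00152, limma). *Postn*, *Fbn1* and *Prrx1* were called lower. *Postn* and *Prrx1* passed the filter only through WT EBs, and *Col3a1* only through CTCF-K20R EBs. Among the genes too low to be tested, *Dcn* had 1.05 and 0.88 normalized counts in WT EBs, against 15.4 and 14.9 in CTCF-K20R EBs, and *Lum* was below the limit of detection in every library. The part of fibroblasts in the changes of the 7 genes was not tested. Pluripotency genes, which fall as mESCs differentiate, were lower for 2 and higher for 4 of 9 tested on day 4, and 0 were called on day 0. The higher ones were *Sox2* (log2 fold change 2.39), *Nanog* (1.66), *Esrrb* (2.65) and *Zfp42* (1.17), and the lower ones were *Klf4* (-1.48) and *Tbx3* (-1.88). Their relation to the changes of the endoderm genes was not tested.

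*Gata4* and *Sox7* lie close together on chromosome 14, with starts 672 kb apart, and the genes around them had a shift that was already present in mESCs. Of the 30 genes tested whose start lies within 2 Mb of that of *Gata4*, 30 had a log2 fold change below 0 on day 0, with a median of -0.96, and 8 were called lower and 0 higher. Around *Sox7*, whose window shares most of these genes, 29 of 29 were below 0 with the same median. Of all 15767 genes tested, 8089 were below 0 on day 0, with a median of -0.01, and 2.60% were called lower. All calls of the limma fit on day 0 were lost without CTCF-K20R EB replicate 1 or 2. On day 4 the median around *Gata4* was -0.84, 26 were below 0, 10 were called lower and 2 higher. The value of *Gata4* itself was -0.56 on day 0 and not called, and its day 4 value of -4.38 was below those of all 30 neighbours, the lowest of which was *Fbxo16* at -2.48. The neighbours called higher on day 4 were *Tdh* (2.75, adjusted p = 1.67e-05, limma), which encodes threonine dehydrogenase, and *Gm17232* (2.48, adjusted p = 0.00434, limma). *Neil2* was also above 0, under the size limit (0.96, adjusted p = 0.0172, limma), as was *Defb42* (0.80, adjusted p = 0.275, limma).

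**Figure D5:**
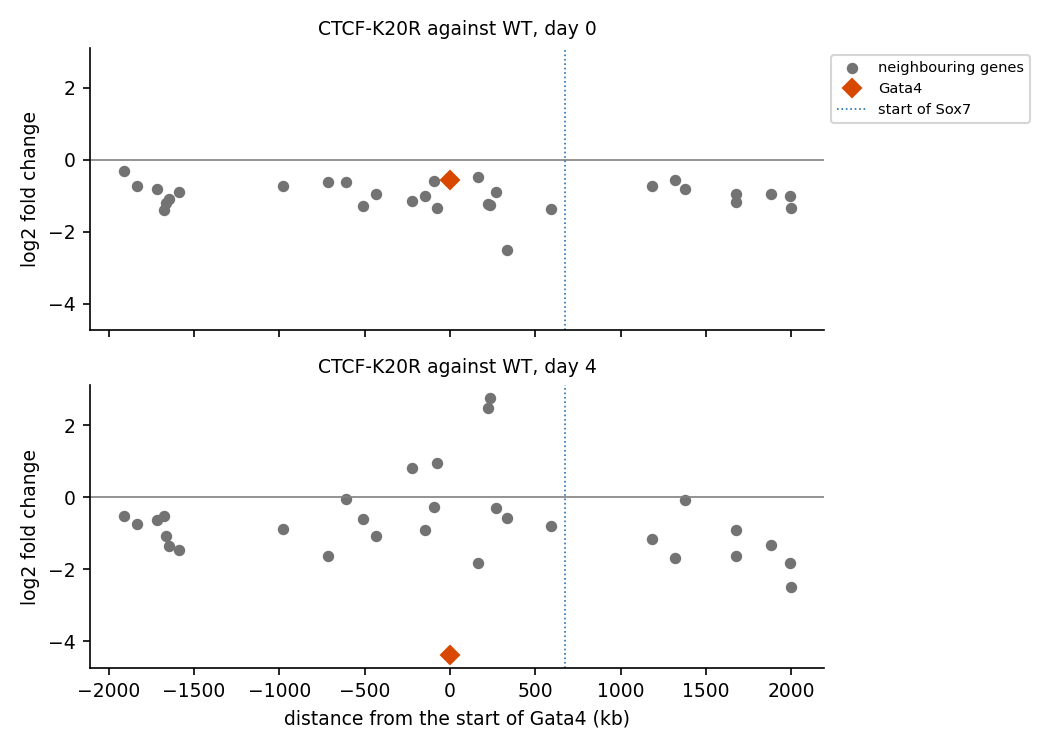
Log2 fold change of CTCF-K20R against WT for the 30 genes tested within 2 Mb of the start of *Gata4* (grey) and for *Gata4* (orange), on day 0 and day 4, by distance in kb. The dotted line marks the start of *Sox7*. All 30 neighbours are below 0 on day 0, with a median of -0.96.

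Around the other 5 genes, the medians on day 0 were close to 0. On that day the median log2 fold change of the neighbours was 0.02 for *Sox17* (14 genes), 0.13 for *Foxa1* (15), -0.01 for *Foxa2* (12), 0.06 for *Gata6* (24) and 0.03 for *Cxcr4* (23), with 0 called in either direction except 1 called higher near *Cxcr4*. On day 4 the medians were 0.34, -0.13, -0.49, -0.11 and 0.01, and the neighbours called lower numbered 1, 1, 4, 2 and 2, in the same order, and those called higher 2, 0, 0, 1 and 0. The 4 around *Foxa2* were 9030622O22Rik (-6.87), *Cd93* (-4.13), *Syndig1* (-1.99) and *Kiz* (-1.61). The gene next to *Foxa2*, the long intergenic non-coding RNA 9030622O22Rik, starts 2674 bases past the end of *Foxa2* on the same strand. It had 118.8 and 112.6 normalized counts in WT EBs and 0 in the other 6 libraries.

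For each gene tested, the genes with the most similar profile were found by the Euclidean distance of centred log2(value + 1) values over the 6 samples. *Pdgfra*, which encodes a growth factor receptor, was at a distance of 0.96 from *Gata6* and 0.87 from *Cxcr4*, and its group means were 43.8 normalized counts in WT mESCs, 51.5 in CTCF-K20R mESCs, 2742 in WT EBs and 25.6 in CTCF-K20R EBs. 9030622O22Rik was next nearest to *Gata6* (1.08), and *Slc44a5* was nearest to *Cxcr4* (0.86). *Gata4* was nearest to 4930412O13Rik (0.59) and *Isl1* (0.70), a LIM homeobox gene of cardiac progenitors with means of 360.8 in WT EBs and 19.7 in CTCF-K20R EBs.

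*Sox17* was nearest to *Pkd1l1* (1.85) and *T* (1.85), the primitive streak gene brachyury, which had means of 20800 normalized counts in WT EBs and 517.4 in CTCF-K20R EBs. *Foxa2* was nearest to *Evx1* (1.89) and *Foxq1* (2.15), and *Foxa1* to *Emilin2* (1.27) and *Robo3* (1.51). Among the 6 genes themselves, the closest pair was *Gata6* and *Cxcr4* (1.58), and no other pair was closer than 2.21, the distance of *Gata4* and *Cxcr4*. These distances are a description of 6 samples in 4 groups and carry no test.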

How the data were processed

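RNA-seq libraries were analysed from WT and CTCF-K20R mESCs (day 0) and EBs (day 4), with 2 libraries for each of the 4 groups. Per the labels and the methods of the study, the authors trimmed reads with Trim Galore, used salmon for quantification on mm10, tximport to sum transcripts per gene, and DESeq2 for normalization. What was deposited is a signal per gene in each library, the normalized count. The annotation release and the use of strand are not given in the sources used here. Each of the 8 value columns carries the name of its sample.

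WT libraries of a day differed by less than the sampling noise, so they were averaged, and 6 samples entered the fit. Replicates were compared over genes with at least 20 normalized counts. Values were analysed as log2(value + 1), on which fold changes of low genes are understated, with limma 3.58.1 in R 4.3.3 (lmFit with 4 group means, eBayes with a mean-variance trend, two-sided, degrees of freedom 2 residual and 3.51 prior). Tests ran on 15767 genes, those averaging 10 or more, and p-values were adjusted by Benjamini-Hochberg. The script was tested on simulated data. The limit of detection was 3 reads, from the step of 1 read at low values, and folds whose mean denominator did not exceed it were computed against it. The alternatives were all 8 libraries as separate samples, the replicate block, pseudocounts of 0.1 and 10, no filter, quantile normalization, only the groups compared, the adjusted p alone, and leaving out each library. The same-numbered libraries did not deviate together (correlation between -0.03 and 0.03).

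Genes named are the 7 genes, those of the lists, the 2 nearest in profile to each gene tested and neighbours within 2 Mb. Some genes and sequences are not reported here, although the counts of the lists include every gene tested. The members and lists were chosen with earlier results of these data known. Gene positions came from GENCODE vM21 (GRCm38, the same build as mm10), which held 15664 of the genes tested, and promoters from RefSeq. Python 3.11.15 with numpy 2.4.6, pandas 2.3.3 and matplotlib 3.10.9 was used for the rest.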

Additional observations from a re-analysis of the deposited data

Results flagged for a closer look

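The genotype difference on day 4 was set against that on day 0 by the interaction term of the limma fit. For 5 of the 6 genes tested the term passed the test, which marks them as genes whose difference between CTCF-K20R and WT differed between mESCs and EBs. The difference of the log2 fold changes (day 4 minus day 0) was -5.10 for *Sox17*, -5.80 for *Foxa1*, -3.82 for *Gata4*, -7.89 for *Gata6* and -5.70 for *Cxcr4*. Of all genes tested, 6.04% passed in this direction. With at most 2 libraries in a group, single libraries that stand apart could not be tested for.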

How the results depend on the processing

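Across 402 repeats of the single-gene results under the alternatives, 362 kept their direction and their side of the threshold, 22 fell below it, 16 came above it and 2 changed sign. Some alternatives could hardly lose a call. The adjusted p alone only loosens the rule, and a WT library that is left out has a nearly equal partner. On day 4, *Sox17*, *Gata4*, *Gata6* and *Cxcr4* stayed called under all 17 alternatives, with log2 fold changes from -4.71 to -4.06 for *Gata4* and from -6.26 to -5.78 for *Cxcr4*. The changes of sign were those of *Foxa2* on day 0, which was not called and moved to -0.79 with a pseudocount of 0.1 and to -1.49 without CTCF-K20R mESC replicate 2, within a range of -1.49 to 2.21 when single libraries were left out. The causes were not tested.

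On day 0, where 0 of these genes were called, 1 was called lower with all 8 libraries as separate samples, with these and the replicate block, with a pseudocount of 0.1, and with only the groups compared. The number called higher was 1 with all 8 libraries as separate samples, with these and the replicate block, with a pseudocount of 0.1 and with quantile normalization, and it was between 0 and 2 when single libraries were left out. Rises within CTCF-K20R cells numbered 2 with a pseudocount of 0.1 and 2 with no filter, against 4, and between 1 and 4 when single libraries were left out. Genes called lower on day 4 numbered 4 to 6 when single libraries were left out, against 6. Genes called lower in the interaction numbered 3 to 6 when single libraries were left out, against 5. Leaving out a CTCF-K20R library leaves its group with 1 sample, which is then assumed to vary like the other groups. With the replicate block and averaged WT libraries, 6 genes were called lower in the interaction, the additional one being *Foxa2*, and no other call changed. Across all genes, quantile normalization called 1249 lower and 1448 higher on day 4, against 1364 and 1087.

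Depth limits *Sox7* and the day 0 values of *Sox17*, *Foxa1* and *Foxa2*, which lie near the limit of detection.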
